A study of Mus musculus with 6 samples.

Results

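Paneth cells were examined in droplet-based single-cell RNA sequencing of mouse ileal crypts. A barcode was taken as a Paneth cell when the genes Defa21, Defa22, Defa24, Defa30, Gm14851, Mptx2 and Lyz1 together held at least 10% of its UMIs (unique molecular identifiers, each marking 1 captured transcript). Of 17104 barcodes that were kept with at least 1000 UMIs, at least 500 genes and at most 20% of UMIs in mitochondrial genes, 986 met this rule. They are called Paneth barcodes here. The levels of the 7 rule genes chose these barcodes, so that their height in them is a description and was not tested.

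The study asked what loss of Fpr2, a receptor for formyl peptides, does to the ileal epithelium. There were 3 libraries from Fpr2f/f mice, labelled WT, in which Fpr2 carried loxP sites. The other 3 libraries came from Fpr2VKO mice, in which Cre under the Villin promoter was meant to delete the floxed gene in the intestinal epithelium. Mice were 8 to 12 weeks old and matched for age and sex, and the dissociated crypts were sorted for EpCAM, a surface protein of epithelial cells, before capture. The study's text gives n = 3 per group for this experiment, while the labels give a replicate number but no animal.

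Paneth cells sit at the base of the small intestinal crypts between the stem cells. They pack alpha-defensins (the cryptdins of the mouse), lysozyme and other antimicrobial proteins into large granules and release them into the crypt lumen, where they act on bacteria. They also present Wnt3, EGF receptor ligands and Notch ligands to the neighbouring stem cells. Their differentiation depends on Wnt signalling and on Sox9, and their granules are rich in zinc.

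The libraries held between 90142126 and 189516114 UMIs, and 1868 to 4722 barcodes of each were kept. Of the barcodes with enough UMIs and genes, the mitochondrial limit removed 78.0%, 65.7% and 70.9% in Fpr2f/f and 90.1%, 76.1% and 85.6% in Fpr2VKO, with overlap. Fpr2 itself had 0 UMIs in every barcode of all 6 libraries, so that the targeted gene could not check the labels. A count of 0 allows up to 0.319 to 1.92 CPM (a gene's UMIs scaled to a common total over all genes) of Fpr2 in the Paneth barcodes of a library, counting error only. No pair of libraries was alike within sampling noise, no Paneth barcode sequence was shared between libraries, and 0 to 23 kept barcode sequences were shared per pair.

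Paneth genes that the rule did not use were also high in these barcodes. Ang4, an angiogenin with antimicrobial activity, was 251-fold higher in the Paneth barcodes than in the other kept barcodes, with 164-fold to 519-fold in single libraries. The lectin Itln1 was 126-fold higher. Mmp7, the protease that activates mouse alpha-defensins, was 29.1-fold higher, Habp2 was 42.4-fold higher and Wnt3 was 8.92-fold higher. Sox9, which stem and progenitor cells also express, was at 0.915 times the level of the other barcodes in CPM of all UMIs. Alpha-defensins and other Paneth effectors held on average 76.1% (Fpr2f/f) and 77.4% (Fpr2VKO) of the UMIs of the Paneth barcodes. This lowers the folds of all other genes, Sox9 included, and levels among the remaining UMIs were not compared. The folds given are descriptions, since the same cells were chosen by genes that move with them.

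The genes with the largest folds over the other kept barcodes are given as a description, rule genes included. Among genes with at least 50 CPM in the Paneth barcodes of every library, the top 30 ran from 21.9-fold for Apoc2 to 567-fold for Defa5. They held 19 alpha-defensin genes, and beside these Mptx2, Lyz1, Ang4, Itln1, Habp2 and Mmp7. The pancreatic-type lipase genes Clps (a colipase) and Pnliprp2 (a lipase-related protein) were among them too, together with Tmed6, Nupr1 and Apoc2. Camp, which encodes the cathelicidin CRAMP, had 0 UMIs in the Paneth barcodes, and the limit given above for Fpr2 holds for it too. The study describes CRAMP as secreted by crypt cells and reports less Cramp by RT-qPCR in the intestine of Fpr2VKO mice.

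Markers of other cell types took a small part of all UMIs in the Paneth barcodes, without a comparison with other kept barcodes. Summed markers of enterocytes (8 genes) lay at 136 to 266 CPM and those of stem cells (5 genes) at 81.7 to 242 CPM. Goblet cell markers (5 genes) reached 1521 to 2398 CPM. Summed immune markers (6 genes) stayed at 0.639 to 7.54 CPM, and tuft cell markers (4 genes) at 2.50 to 5.11 CPM. Enteroendocrine markers (4 genes) reached 188 CPM in Fpr2VKO replicate 1 and 6.21 to 19.8 CPM in the other 5 libraries. Rich in them were 4 Paneth barcodes of Fpr2VKO replicate 1 and 1 of Fpr2VKO replicate 3. Their part in the results below was not tested beyond the fits without those barcodes.

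Antimicrobial transcripts filled most of the captured RNA of these cells. Summed over the Paneth barcodes of a library, 28 alpha-defensin genes took 60.3%, 67.7% and 62.4% of the UMIs in Fpr2f/f and 60.5%, 67.9% and 62.8% in Fpr2VKO. The means of 63.4% ± 3.83 and 63.7% ± 3.78 (SD, n = 3 each) are a description, since 5 of these genes belong to the rule. With lysozyme, lectins, the RNase Ang4 and other effectors, 49 genes took 76.1% ± 2.94 and 77.4% ± 2.13 of the UMIs. Defa24 alone accounted for 21.9% ± 0.787 in Fpr2f/f and 21.5% ± 1.81 in Fpr2VKO. Ribosomal protein genes (97) were left with 2.57% ± 0.309 and 2.35% ± 0.148, and the 13 mitochondrial genes with 2.97% ± 0.574 and 3.11% ± 0.627.

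Single Paneth barcodes were far from uniform. The share of UMIs in the 7 rule genes had a median of 49.8%, with 12.9% and 62.4% at the 5th and 95th percentiles. UMIs per barcode had a median of 20664.5 and ran from 1756.5 to 106805 over the same percentiles. The 367 barcodes with 50% to 60% of their UMIs in the rule genes had a median of 53521 UMIs and 1.85% mitochondrial UMIs. The 136 barcodes at 10% to 20% had a median of 3682 UMIs and 13.3% mitochondrial UMIs. They made up 30.3%, 19.05% and 16.3% of the Paneth barcodes in Fpr2f/f and 11.3%, 5.80% and 7.02% in Fpr2VKO, without overlap.

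As CPM of all UMIs, goblet cell and enterocyte transcripts were most frequent where the rule genes were fewest. Rule genes held 14.6% of the UMIs in the barcodes at 10% to 20% and 55.4% in those at 50% to 60%. A smaller share of rule genes by itself raises the CPM of other genes, and how much of the difference this makes was not tested. Goblet cell markers summed to 6793 CPM in the barcodes at 10% to 20% and to 1399 CPM in those at 50% to 60%. Enterocyte markers summed to 1473 and 104 CPM. Stem cell markers did not follow this order, with 256 CPM at 10% to 20%, 430 CPM at 20% to 30%, 397 CPM at 40% to 50% and 100.7 CPM at 50% to 60%. Beside the limit itself, the 11 barcodes at 9% to 10% had a median of 5111 UMIs and 8.62% mitochondrial UMIs, and the 15 at 10% to 11% had 4926 UMIs and 12.4%. Most other kept barcodes lay far below the limit, with 92.1% to 98.1% of them under 1% and 42 to 353 per library between 1% and 10%.

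**Figure D1:**
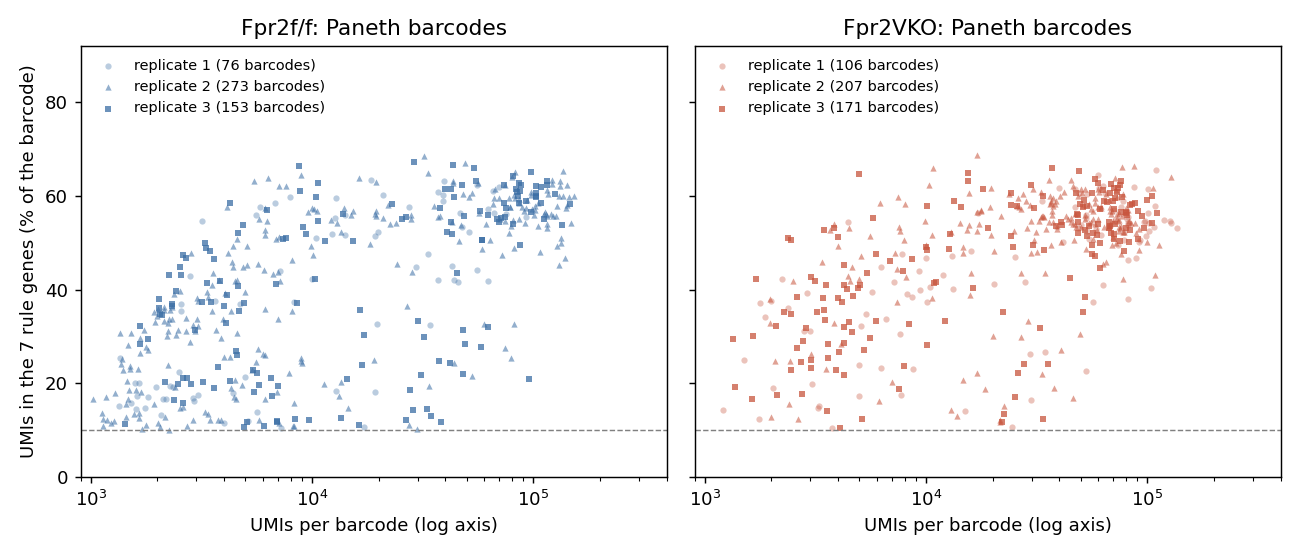
Each point is 1 Paneth barcode, with its UMIs on a log axis (x) and the percent of them in the 7 rule genes (y), for Fpr2f/f on the left and Fpr2VKO on the right, with a symbol for each library. The dashed line is the limit of 10%. Barcodes with over 50000 UMIs lie mostly above 40%, and low shares lie mostly among barcodes of few UMIs.

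The share of kept barcodes that were Paneth barcodes varied widely between libraries and with the mitochondrial limit. They were 76 of 2643 (2.88%), 273 of 4722 (5.78%) and 153 of 2836 (5.39%) in the Fpr2f/f libraries. In the Fpr2VKO libraries they were 106 of 2267 (4.68%), 207 of 2768 (7.48%) and 171 of 1868 (9.15%). The groups overlapped, and the means of 4.68% ± 1.58 and 7.10% ± 2.26 (n = 3 each) did not differ beyond the spread (exact permutation p = 0.3; the smallest p that 3 against 3 allows is 0.1). With a limit of 10% mitochondrial UMIs in place of 20%, the shares were 7.75%, 10.9% and 13.5% in Fpr2f/f and 17.04%, 24.7% and 32.9% in Fpr2VKO, without overlap (exact permutation p = 0.1). With 40% the direction turned, at 2.25%, 4.07% and 3.05% in Fpr2f/f and 1.47%, 3.40% and 3.56% in Fpr2VKO (exact permutation p = 0.7). Per 100 goblet barcodes, those with at least 1% of UMIs in the mucus genes Muc2, Fcgbp, Clca1 and Zg16, there were 39.6, 73.2 and 64.8 Paneth barcodes in Fpr2f/f and 56.4, 78.4 and 138 in Fpr2VKO (exact permutation p = 0.4).

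At the limits used, Paneth barcodes were deeper in Fpr2VKO. Median UMIs per Paneth barcode were 10229, 7644 and 13827 in Fpr2f/f and 44355, 36716 and 24652 in Fpr2VKO, without overlap (exact permutation p = 0.1, the smallest possible). Barcodes of 1000 to 5000 UMIs were 36.8%, 39.6% and 31.4% of the Paneth barcodes in Fpr2f/f and 16.98%, 10.1% and 28.7% in Fpr2VKO. Those of at least 50000 UMIs were 13.2%, 28.6% and 26.8% against 46.2%, 35.7% and 35.7%. The other kept barcodes were deeper in Fpr2VKO as well, with medians of 6059 ± 266 UMIs against 4002 ± 878 (exact permutation p = 0.1), but with up to 40% mitochondrial UMIs this turned to 3076 ± 700 against 3479 ± 928 (exact permutation p = 0.5). Above 5000 UMIs the Paneth medians were closer, at 36634 ± 10791 and 47748 ± 7544 (exact permutation p = 0.3). The groups also overlapped at other mitochondrial limits, with medians of 24228, 52726 and 39811 against 65895, 38400 and 52178 UMIs at 10%, and 1995, 3025 and 4619 against 6240, 29836 and 3119 UMIs at 40%.

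Between genotypes, 14 of 9405 genes tested in the Paneth barcodes passed (0.149%; edgeR quasi-likelihood test on the UMI sums per library, adjusted p under 0.05), 2 of them higher in Fpr2VKO (0.0213%) and 12 lower (0.128%). The unadjusted p was under 0.05 for 781 genes. In 1155 genes (12.3%) the 3 Fpr2VKO libraries did not overlap with the 3 Fpr2f/f libraries, 551 higher (5.86%) and 604 lower (6.42%). The gene with the smallest p, Mt1, rose, and 3 of the 12 genes that fell encode alpha-defensins or a pentraxin. DESeq2 called 19 genes, of which 4 were among the 14. Its own filter left 8934 of the 9405 genes without an adjusted p, the other 10 of the 14 among them.

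The count of calls depended on single libraries. It was 38, 22 and 10 without Fpr2f/f replicate 1, 2 or 3, and 4, 22 and 15 without Fpr2VKO replicate 1, 2 or 3. Over 19 alternatives in processing, Mt1 and Defa34 passed in all 19, Gm15293 in 16 and Tmsb10 in 13. Of the 18 that gave them an adjusted p, Zfp949 passed in 14 and 8 other genes in 6 to 10 each. Mptx1 passed in 11 of 16. Each of the 14 genes kept its direction in the alternatives that gave it an adjusted p.

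**Figure D2:**
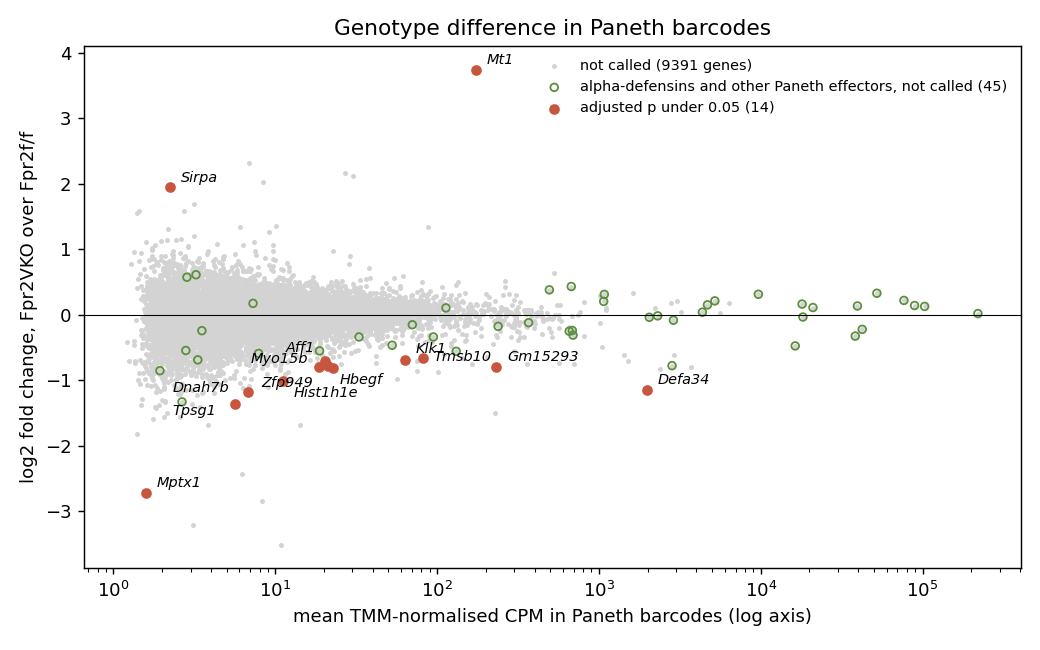
Each point is 1 of 9405 genes, with its mean TMM-normalised CPM in the Paneth barcodes on a log axis (x) and its log2 fold change of Fpr2VKO over Fpr2f/f (y). The 14 genes with an adjusted p under 0.05 are filled and named, open circles are alpha-defensins and other Paneth effectors that did not pass, and Mt1 stands alone at 3.74.

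Mt1 (chr8:94179082-94180327, plus strand) encodes a metallothionein, a small cysteine-rich protein that binds zinc and copper. Its level in the Paneth barcodes, in CPM after TMM normalisation, was 14.97, 28.8 and 24.6 in Fpr2f/f and 280, 371 and 318 in Fpr2VKO. The groups lay far apart, and the log2 fold change was 3.74 (SE 0.171, adjusted p = 1.47e-16). Mt1 UMIs were found in 15 of 76, 116 of 273 and 61 of 153 Paneth barcodes of Fpr2f/f and in 98 of 106, 196 of 207 and 159 of 171 of Fpr2VKO. Those shares are not corrected for the greater depth of the Fpr2VKO barcodes or for Mt1 from free RNA. They therefore do not give the number of cells in which Mt1 rose. The 10 Paneth barcodes with most Mt1 UMIs held 20.8% to 34.9% of them in the Fpr2VKO libraries.

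Mt1 was also compared within ranges of depth. Among Paneth barcodes of at least 50000 UMIs, Mt1 was at 6.09, 16.9 and 16.2 CPM in Fpr2f/f and 281, 294 and 289 CPM in Fpr2VKO. Among those of 1000 to 5000 UMIs it was at 14.0, 137 and 119 CPM against 518, 638 and 731 CPM. The groups did not overlap in either range, within which depth still varied. In each genotype the CPM of Mt1 were lower in the deep barcodes than in the shallow ones. Rule genes held 55.3% of the UMIs in the deep range and 31.6% in the shallow one. A larger share of rule genes by itself lowers the CPM of other genes, and its part here was not tested. Fpr2f/f replicate 1 had 26 Mt1 UMIs in its 76 Paneth barcodes, with 28 barcodes in the shallow range and 10 in the deep one. Its values thus rest on few counts.

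Mt1 was higher in Fpr2VKO outside Paneth cells too. As plain CPM of the summed UMIs it was 16.6, 24.2 and 27.2 in Fpr2f/f Paneth barcodes and 291, 326 and 328 in those of Fpr2VKO. Goblet barcodes had 81.9, 127 and 176 CPM against 949, 1018 and 973 CPM. All other kept barcodes had 301, 288 and 421 CPM against 1220, 1284 and 1367 CPM. As CPM of all UMIs, Paneth barcodes were thus the lowest of these in each library. Effector genes took 76.1% (Fpr2f/f) and 77.4% (Fpr2VKO) of their UMIs on average, which lowers the CPM of every other gene there. Mt1 among the remaining UMIs was not compared. The genotype difference in Paneth barcodes was larger than that of the other kept barcodes, by 1.89 on the log2 scale (SE 0.178, adjusted p = 7.38e-13, edgeR interaction test). Mt1 was the 1 gene called of 15463 in that test (0.00647%).

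Mt1 was higher in the free RNA of Fpr2VKO too, with a smaller ratio than in Paneth barcodes. Barcodes under 100 UMIs, which hold RNA released from broken cells, had 148, 161 and 236 CPM of Mt1 in Fpr2f/f and 865, 934 and 1111 CPM in Fpr2VKO. If every enterocyte marker UMI in the Paneth barcodes had come from free RNA, free RNA would have brought at most 15.8, 20.4 and 20.8 CPM of Mt1 to the Fpr2f/f Paneth barcodes and 79.2, 160 and 105 CPM to those of Fpr2VKO. That is 76.5% to 94.8% of their Mt1 in Fpr2f/f and 27.2% to 49.0% in Fpr2VKO.

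**Figure D3:**
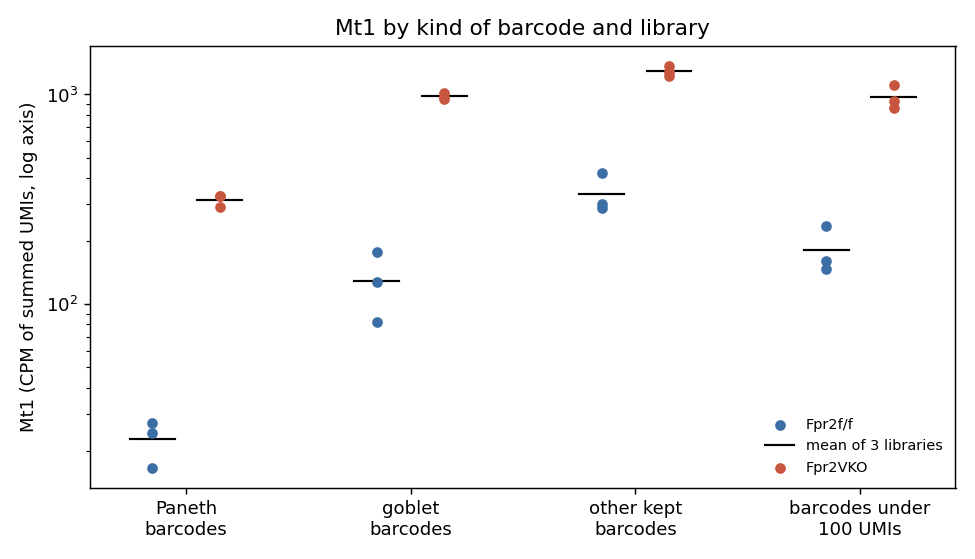
Mt1 in CPM of summed UMIs on a log axis (y) in Paneth, goblet and other kept barcodes and in barcodes under 100 UMIs (x), with 1 point per library and a bar at the mean of 3 libraries. The Fpr2VKO points lie above the Fpr2f/f points in each kind of barcode, and the gap is widest in Paneth barcodes, where the values are lowest. Effector UMIs count in the totals, which lowers the CPM in Paneth barcodes.

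Of the 20 tested genes among 25 for metallothioneins and zinc transport, Mt1 was called higher and no other was called (0.0213% of all genes were called higher and 0.128% lower). Their median log2 fold change was -0.03 (-0.0041 over all genes). Mt2, the neighbouring metallothionein gene, was at 3.46, 2.14 and 2.11 CPM in Fpr2f/f and 3.80, 24.1 and 5.59 CPM in Fpr2VKO. Its groups did not overlap, but the 24.1 of Fpr2VKO replicate 2 carried most of the difference (log2 fold change 2.32, adjusted p = 0.682).

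The alpha-defensin genes lie together on chromosome 8, and 28 were detected. They fell into 9 groups of closely alike transcripts, each gene being joined to a group by at least 1 partner of at least 97% identity over the aligned bases (GENCODE vM21), and each of 27 genes with at least 300 aligned bases had a partner at 97.02% to 100%. How the counting divided reads among such genes is uncertain. Summed levels over a group are less open to this than single genes. Of the 23 that the rule did not use, 0 were called higher (0.0213% of all genes) and 2 lower (0.128% of all genes). In total 19 of these were estimated lower, against 4758 of all 9405 genes, and their median log2 fold change was -0.34, against -0.0041 over all genes.

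The most abundant alpha-defensins overlapped between genotypes. Defa24 was at 201394, 264666 and 189856 CPM in Fpr2f/f and 188946, 264748 and 210369 CPM in Fpr2VKO, with a log2 fold change of 0.02. Defa24 and Defa30 together differed by a ratio of 1.04, and AY761184, Defa29 and Gm14851 together by 1.11. Both sums overlapped between genotypes. The rule genes Defa30 and Gm14851 had log2 fold changes of 0.14 and 0.22. Values of rule genes are bounded from below by the choice of barcodes and are given without a test.

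Defa21 and Defa22 differed more between libraries than between genotypes. Defa21 was at 28414, 57176 and 51392 CPM in Fpr2f/f and 44702, 24188 and 48515 CPM in Fpr2VKO. Defa22 moved with it, at 24700, 48206 and 55198 CPM and 40287, 19792 and 42175 CPM. Their transcripts are 99.5% identical over 418 aligned bases, so the counts may not tell these genes apart. Per barcode, both genes together took a median of 8.56%, 13.5% and 10.02% of the alpha-defensin UMIs in Fpr2f/f and 12.6%, 2.01% and 11.3% in Fpr2VKO. Fpr2VKO replicate 2 was thus the lowest of the 6 libraries, and over all Paneth barcodes the share ran from 0.120% to 31.8% (5th to 95th percentiles).

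The 250 bases before the start of either gene are shown because they were the same in every base. They come from RefSeq on GRCm38.p6, plus strand, at chr8:21025295-21025544 for Defa21 and chr8:21162027-21162276 for Defa22. Capitals mark the letters ATCAAAG, the reverse complement of CTTTGAT, the core bound by TCF/LEF factors of the Wnt pathway. Both strands were searched for it, and 2 matches were found 112 and 72 bases before the start. Of 32851 promoters of up to 250 bases, 3.21% held at least 1 match and 0.0822% at least 2.
Defa21 and Defa22: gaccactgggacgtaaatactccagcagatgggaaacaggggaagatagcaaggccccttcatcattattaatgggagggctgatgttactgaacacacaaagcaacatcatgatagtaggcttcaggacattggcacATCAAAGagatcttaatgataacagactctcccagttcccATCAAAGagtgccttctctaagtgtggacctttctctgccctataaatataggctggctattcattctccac

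A group of 6 genes, Defa34, Defa5, Gm15293, Defa35, Defa36 and Defa37, had a lower summed level in Fpr2VKO, and the sum was not tested. These are 97.4% to 100% identical to each other, and the nearest alpha-defensin outside the group is 89.9% identical. Their summed level was 5731, 9242 and 7154 CPM in Fpr2f/f and 4867, 3487 and 4004 CPM in Fpr2VKO. The groups did not overlap, with means of 7376 ± 1766 and 4119 ± 697 CPM and a ratio of 0.558. Of all genes, 6.42% were lower without overlap. All 6 genes were estimated lower, and Defa34 and Gm15293 passed (0.128% of all genes were called lower). With transcripts so alike, the directions of the 6 genes are not separate observations.

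Defa34 (chr8:21665797-21666732, plus strand) fell from 2239, 3170 and 2792 CPM to 1567, 972 and 1174 CPM. Its log2 fold change was -1.14 (SE 0.178, adjusted p = 0.000646, edgeR). Gm15293 fell from 230, 305 and 347 CPM to 198, 148 and 165 CPM (log2 fold change -0.80, adjusted p = 0.00872). Defa5 was at 2714, 4903 and 3109 CPM and at 2368, 1934 and 1962 CPM, without overlap, but did not pass (log2 fold change -0.78, adjusted p = 0.0952). Defa35, Defa36 and Defa37 had log2 fold changes of -0.31, -1.33 and -0.69 and did not pass.

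Defa34 was also set against Defa24, which is a rule gene, so that the ratio in Paneth barcodes is a description. There were 1.11, 1.198 and 1.47 Defa34 UMIs per 100 Defa24 UMIs in Fpr2f/f Paneth barcodes and 0.829, 0.367 and 0.558 in Fpr2VKO. Free RNA, from barcodes that the rule did not use, gave 1.03, 0.804 and 1.33 against 0.622, 0.321 and 0.429. Those groups did not overlap (exact permutation p = 0.1, the smallest possible). Free RNA comes from the same cell suspensions and is no independent replicate.

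The coding sequences of the 3 genes of this group with the smallest p are shown to give how alike they are. They were taken from the GENCODE vM21 transcripts, each with 282 bases, and capitals mark the 7 positions at which they differ. Defa34 and Defa5 differ at 4 positions, Defa34 and Gm15293 at 7, and Defa5 and Gm15293 at 3.
Defa34: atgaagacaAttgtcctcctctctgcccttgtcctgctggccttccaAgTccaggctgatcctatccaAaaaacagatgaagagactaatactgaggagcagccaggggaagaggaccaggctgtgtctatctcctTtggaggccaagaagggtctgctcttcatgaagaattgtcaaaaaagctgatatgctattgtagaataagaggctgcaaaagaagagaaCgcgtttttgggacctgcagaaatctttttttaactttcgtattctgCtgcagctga
Defa5: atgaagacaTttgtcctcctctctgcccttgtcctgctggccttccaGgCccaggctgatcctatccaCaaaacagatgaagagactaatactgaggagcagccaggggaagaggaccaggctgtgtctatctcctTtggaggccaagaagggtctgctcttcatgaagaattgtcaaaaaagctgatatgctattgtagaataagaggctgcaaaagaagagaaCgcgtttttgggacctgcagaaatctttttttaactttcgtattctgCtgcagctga
Gm15293: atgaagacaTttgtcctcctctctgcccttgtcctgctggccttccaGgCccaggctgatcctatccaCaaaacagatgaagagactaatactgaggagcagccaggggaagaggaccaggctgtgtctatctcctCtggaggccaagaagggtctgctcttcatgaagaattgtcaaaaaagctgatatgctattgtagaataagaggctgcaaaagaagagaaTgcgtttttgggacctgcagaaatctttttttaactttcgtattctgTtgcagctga

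Another group, Defa25, Defa27 and Defa28, had summed levels of 412 ± 43.4 CPM in Fpr2f/f and 334 ± 13.7 CPM in Fpr2VKO without overlap, and none of the 3 passed. The other 7 groups overlapped between genotypes.

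**Figure D4:**
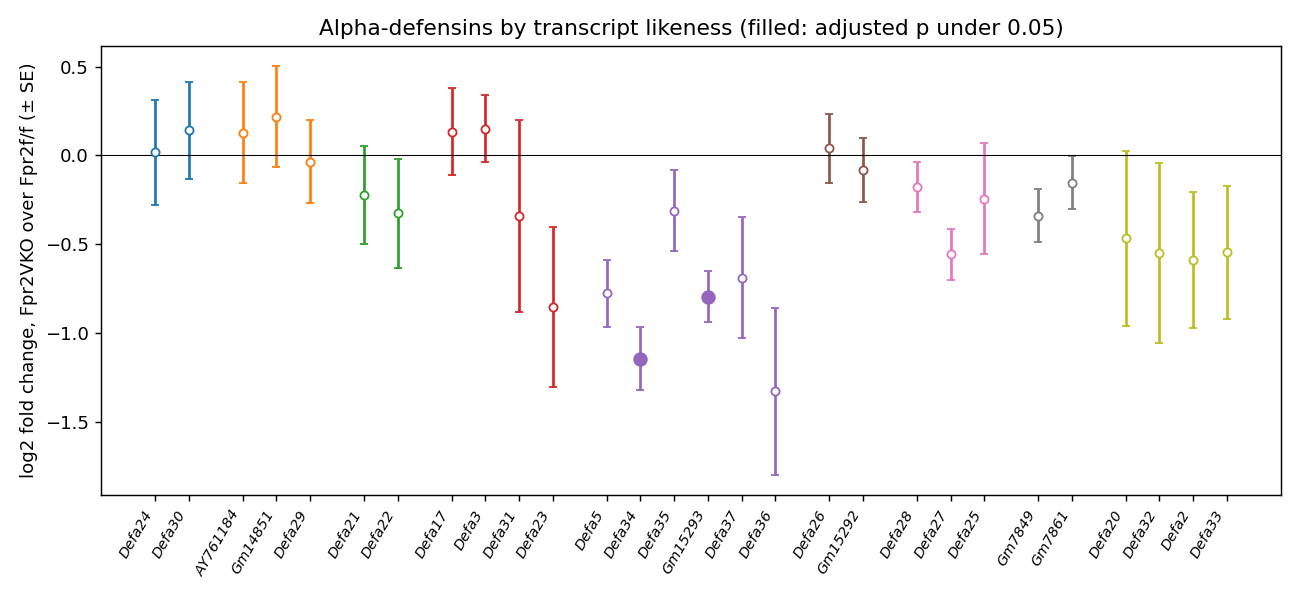
The log2 fold change of Fpr2VKO over Fpr2f/f (y, bars are SE of the edgeR fit on 3 libraries per group) is plotted for 28 alpha-defensin genes (x), coloured and spaced by group of transcripts joined at 97% identity or more. All 6 genes of the group of Defa34 lie below 0, with Defa34 and Gm15293 filled as passing the adjusted p of 0.05.

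Other Paneth effectors mostly overlapped between genotypes. Of 18 tested genes among 19 outside the rule, 0 were called higher (0.0213% of all genes) and 1 lower (0.128%), with a median log2 fold change of 0.14 (-0.0041 over all genes). Lyz1, the lysozyme of Paneth cells, was at 48398, 50139 and 40356 CPM in Fpr2f/f and 63626, 49530 and 61278 CPM in Fpr2VKO, with a log2 fold change of 0.33. Mptx2, a mucosal pentraxin and like Lyz1 a rule gene, had 0.31. Ang4 had 0.16, Itln1 0.11, Mmp7 -0.02 and the C-type lectin Reg3g -0.04, all on the log2 scale and none of them passing.

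The gene called lower in this list was Mptx1, a second mucosal pentraxin, at low counts. It had 6, 21 and 13 UMIs in the Fpr2f/f Paneth barcodes and 1, 2 and 4 in those of Fpr2VKO (log2 fold change -2.72, adjusted p = 0.0236). Spink4, a serine peptidase inhibitor of secretory cells, was at 17252, 21311 and 18449 CPM in Fpr2f/f and 11734, 15799 and 13488 CPM in Fpr2VKO. The groups did not overlap, yet it did not pass (log2 fold change -0.47, adjusted p = 0.556). All 5 goblet cell markers were estimated lower in the Fpr2VKO Paneth barcodes too (4758 of all 9405 genes were), with a median log2 fold change of -0.70 and none passing. Their plain summed CPM overlapped, at 1729, 1745 and 2398 in Fpr2f/f and 1521, 1762 and 1655 in Fpr2VKO (exact permutation p = 0.3). Barcodes at 10% to 20% in the rule genes, where goblet marker CPM were highest, were also a smaller share of the Paneth barcodes in Fpr2VKO. Their part in the lower goblet estimates was not tested. Pnliprp2 had 541, 630 and 552 CPM against 681, 836 and 808 CPM, also without overlap and without passing (adjusted p = 0.297).

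**Figure D5:**
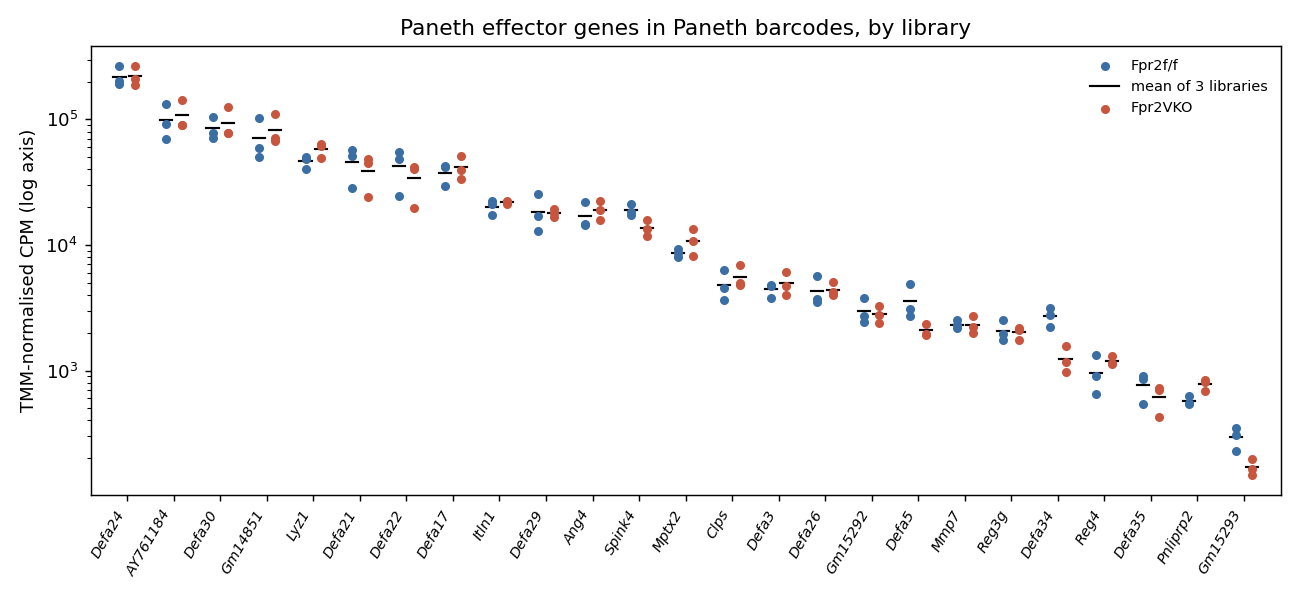
TMM-normalised CPM on a log axis (y) of 25 effector genes (x) in the Paneth barcodes, with 1 point per library and a bar at the mean of 3 libraries. The Fpr2VKO points of Defa34 and Gm15293 lie below all Fpr2f/f points, while those of Defa24, Lyz1 and Ang4 overlap with them. Transcript length was not taken into account, so heights are not to be compared between genes.

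Among ligands that Paneth cells offer to stem cells, 11 of 21 listed genes were tested, 0 were called higher (0.0213% of all genes) and 1 lower (0.128%), with a median log2 fold change of 0.06 (-0.0041 over all genes). The lower one was Hbegf, an EGF receptor ligand, at 20.7, 33.1 and 25.8 CPM in Fpr2f/f and 16.8, 15.4 and 15.95 CPM in Fpr2VKO (log2 fold change -0.79, adjusted p = 0.0276). Wnt3 was at 31.1, 32.7 and 36.0 CPM and at 24.4, 34.6 and 28.0 CPM, with overlap (adjusted p = 0.786). Egf had a log2 fold change of 0.26, the Notch ligands Dll4 and Dll1 0.14 and 0.23, and Areg 0.06, and none of these passed.

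Transcription factors of the secretory lineage showed no call in either direction among 16 tested of 17, where 0.149% of all genes were called. Their median log2 fold change was 0.03. Sox9 was at 62.2, 54.6 and 89.3 CPM in Fpr2f/f and 68.1, 119 and 81.6 CPM in Fpr2VKO (log2 fold change 0.38, adjusted p = 0.772). Atoh1, which commits progenitors to the secretory fate, had 0.36, Spdef -0.38 and Bhlha15, a regulator of secretory capacity, 0.03. The largest estimate among them was that of Klf4, at -0.47 (adjusted p = 0.373).

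The other lists of pathways gave no call, where 0.149% of all genes were called. They covered protein folding in the endoplasmic reticulum and the unfolded protein response (31 tested), microbial sensing and autophagy (16), interferon and antigen presentation (18), Wnt receptors and targets (21), the Notch pathway (21), the Hippo pathway (13), glycolysis and lactate (17) and genes of dissociation and stress (12). Their median log2 fold changes lay between -0.09 and 0.27. Genes of dissociation and stress had the highest, with 10 of 12 estimated higher in Fpr2VKO and 3 higher without overlap (5.86% of all genes). In interferon and antigen presentation 14 of 18 were estimated higher and 3 were higher without overlap, and in the Hippo pathway 10 of 13 and 3, beside 1 lower without overlap. In glycolysis and lactate 4 of 17 were lower without overlap (6.42% of all genes) and 2 higher. The lists of Wnt, Notch and microbial sensing genes each held 2 genes lower and 0 higher without overlap, and that of protein folding 1 lower and 0 higher. Fos, an immediate early gene of this kind, had 0.64 on the log2 scale without passing (adjusted p = 0.0647).

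The remaining genes that fell in Fpr2VKO Paneth barcodes were of mixed function. Klk1, a tissue kallikrein protease, fell from 76.0, 65.0 and 93.5 CPM to 53.9, 41.3 and 49.8 CPM (adjusted p = 0.0295). Tmsb10, which binds actin monomers, fell from 91.6, 106 and 100 CPM to 71.3, 59.9 and 59.5 CPM (adjusted p = 0.0236). Zfp949, a zinc finger gene, fell from 31.1, 29.8 and 27.1 CPM to 13.01, 15.4 and 20.7 CPM (adjusted p = 0.0236). Aff1, of the elongation machinery of RNA polymerase, fell by 0.71 on the log2 scale (adjusted p = 0.0490).

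Below a mean of 20 CPM, 5 more genes passed beside Mptx1. The second gene that rose was Sirpa, a receptor for CD47, with 2, 10 and 2 UMIs in Fpr2f/f and 16, 25 and 24 UMIs in Fpr2VKO (log2 fold change 1.94, adjusted p = 0.0490). The linker histone gene Hist1h1e (-1.01), the dynein gene Dnah7b (-1.18), the tryptase gene Tpsg1 (-1.36) and the myosin gene Myo15b (-0.79) fell. Genes at 20 CPM or more whose groups did not overlap, and which did not pass, were ranked by p. Besides Fos, those estimated higher with the smallest p were Prxl2a, Yipf4, Vil1, Ier2, Nfkbia, Atp6v1g1, Cnbp and Abhd17c. Vil1, whose promoter drives the Cre, had 0.50 on the log2 scale (adjusted p = 0.127). In the lower direction the first in this ranking were Peak1, a pseudokinase gene, with -0.82 (adjusted p = 0.0542) and the ribosomal protein gene Rpl35 with -0.57 (adjusted p = 0.0638).

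Against goblet barcodes, the genotype difference in Paneth barcodes differed for 4 of 11111 genes (0.036%), 2 of them with a higher (0.018%) and 2 with a lower value (0.018%) in Paneth barcodes. DESeq2 called 0, and leaving out 1 library gave 1 to 17. Mt1 was among these with 0.90 on the log2 scale (SE 0.157, adjusted p = 0.0128, edgeR interaction test). The other 3 were Mptx1, Retnlb and Chga, each at low counts in the Paneth barcodes.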

How the data were processed

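Ileal crypt epithelium of 3 Fpr2f/f and 3 Fpr2VKO libraries was captured on the MobiNova-100 platform. The deposited matrices hold raw UMI counts per gene and barcode, made by the authors with MobiVision on mm10, before any cell calling. The annotation version is not given in the sources used here. The study's own cell filters and clusters (Seurat 4.0.0) were not used.

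UMIs of Paneth barcodes were summed per library, as were those of goblet and of other kept barcodes. Genes passing filterByExpr were tested with edgeR 4.0.16 in R 4.3.3 (quasi-likelihood, robust, TMM, Benjamini-Hochberg over all genes tested). Interactions used the library as block, and DESeq2 1.42.0 was an alternative. CPM are TMM-normalised unless called plain, and are not divided by transcript length. Folds against other barcodes are of plain CPM. Values of single libraries were compared by two-sided exact permutation tests (smallest p 0.1). Values per group are means ± SD of 3 libraries. P-values measure the spread between libraries. For interactions this is the spread, from library to library, of the difference between kinds of barcode within a library.

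Doublet candidates were scored by nearest neighbours (scikit-learn 1.9.0) and removed only as an alternative. Free RNA was read from barcodes under 100 UMIs and not subtracted. Members and lists were chosen with earlier results of these data known. Genes were named as rule genes, list members, up to 10 called per direction with at least 20 CPM and no overlap of groups (filled up by smallest p), interaction calls and the 30 largest folds. The 6 called genes below 20 CPM were named after their values were seen. Simulated counts gave all genes the same dispersion (0.0182) and not their own spread, and changed genes were drawn from those at 20 CPM or more. On these counts the test called 99 of 100 genes changed by 1 on the log2 scale and 10 of 9205 unchanged genes. The rate for changed genes of wider spread or lower level was not simulated. The interaction test with the other kept barcodes called 67 of 100 and 14 of 9205, simulated over the same 9405 genes and not the 15463 of the reported test. Alternatives were the limits on rule gene share, mitochondrial UMIs and UMIs, doublets, scaling, the low-count filter, DESeq2, a replicate block and leaving out each library.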

Additional observations from a re-analysis of the deposited data

Results flagged for a closer look

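Genotype differences that differed between kinds of barcode are given here. Mt1 rose more in Paneth barcodes than in the other kept barcodes of the same libraries, by 1.89 on the log2 scale (edgeR interaction test, adjusted p = 7.38e-13), and this difference was called in 19 of 19 alternatives (1.44 to 2.19). Set against goblet barcodes it was 0.90 (adjusted p = 0.0128), called in 13 of 19, and without Fpr2f/f replicate 3 or Fpr2VKO replicate 3 it was 0.70 or 0.89 and did not pass. As CPM of all UMIs, effector UMIs included, Mt1 was lowest in Paneth barcodes in both genotypes. Mt1 was higher in the free RNA of Fpr2VKO too. The part of free RNA in the size of the interaction was not tested.

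Mptx1, the mucosal pentraxin, had an interaction of -3.20 against goblet barcodes (edgeR, adjusted p = 0.0128). It was at 3.83, 2.23 and 2.52 CPM in Fpr2f/f Paneth barcodes and 0.208, 0.242 and 0.678 CPM in those of Fpr2VKO, while goblet barcodes had 18.7, 36.6 and 9.65 CPM and 25.2, 21.5 and 52.5 CPM. The Paneth groups did not overlap and the goblet groups did. The interaction passed in 12 of 19 alternatives.

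Retnlb, a resistin-like protein of goblet cells, had an interaction of -3.24 (edgeR, adjusted p = 0.0128). In Paneth barcodes it was at 6.39, 1.17 and 27.0 CPM in Fpr2f/f and 2.08, 1.82 and 2.03 CPM in Fpr2VKO. Goblet barcodes had 2.34, 1.03 and 3.95 CPM and 8.84, 5.31 and 1.18 CPM. Both pairs of groups overlapped, and the 27.0 CPM of Fpr2f/f replicate 3 stood apart. The interaction passed in 11 of 19 alternatives. Without that library it was -2.07 (adjusted p = 0.872), and with the replicate block -2.34 (adjusted p = 0.259).

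Chga, the enteroendocrine granule gene, had an interaction of 5.42 (edgeR, adjusted p = 0.0128). In Paneth barcodes it was at 3.20, 3.51 and 2.13 CPM in Fpr2f/f and 39.8, 1.09 and 1.69 CPM in Fpr2VKO, so that Fpr2VKO replicate 1 alone was high. Goblet barcodes had 8.77, 40.3 and 11.8 CPM and 3.60, 1.47 and 1.77 CPM. The interaction passed in 13 of 18 alternatives. It did not pass without Fpr2VKO replicate 1 (2.75) or Fpr2f/f replicate 2 or 3 (4.72 and 5.58), and it passed at 3.02 without the barcodes rich in enteroendocrine markers. The fold change within Paneth barcodes reversed to -1.11 without Fpr2VKO replicate 1. DESeq2 called none of the 4 interactions against goblet barcodes.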

How the results depend on the processing

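Mt1 and Defa34 passed in all 19 alternatives, Mt1 with log2 fold changes of 3.47 to 3.93 and Defa34 with -1.34 to -0.99. The 14 genes called in Paneth barcodes became 4 with a limit of 5% of UMIs in the rule genes, 29 with 20%, 4 and 8 with at most 10% or 40% mitochondrial UMIs, 7 and 8 with at least 2000 or 5000 UMIs, 6 without doublet candidates and 74 with no filter on low counts (38 higher, 36 lower). Leaving out 1 library gave 4 to 38. The 1 gene of the interaction with the other kept barcodes became 2 and 10 (5% and 20% in the rule genes), 61 and 19 (10% and 40% mitochondrial), 2 (5000 UMIs), 6 (no doublet candidates), 5 (DESeq2 size factors), 2 (TMM without effector genes), 19 (no filter) and 1 to 20 (1 library left out), with Mt1 called each time. Without barcodes rich in enteroendocrine markers, a setting chosen after seeing the data, it was 2. The 4 genes of the interaction with goblet barcodes became 1 with 5% in the rule genes, with 10% and with 40% mitochondrial UMIs, 0 with DESeq2, 27 with no filter and 1 to 17 with 1 library left out. The cause of these changes was not tested.

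Some directions reversed. The difference in the share of Paneth barcodes became -0.313 percentage points with at most 40% mitochondrial UMIs, and that in rule gene UMIs became -0.122 with 20% in the rule genes. The difference in median UMIs of the other kept barcodes became -403 with at most 40% mitochondrial UMIs. The fold change of Defa24, near 0 throughout, was -0.080 (20% in the rule genes), -0.017 (10% mitochondrial) and -0.039 (5000 UMIs), and ran from -0.13 (without Fpr2VKO replicate 2) to 0.18 with 1 library left out, with -0.034 and -0.069 without Fpr2f/f replicate 1 or 3. Leaving out 1 library moved Defa21 between -0.47 and 0.032, Defa30 between -0.12 and 0.33, and Gm14851 between -0.037 and 0.59, each reversed without Fpr2VKO replicate 2. Chga in Paneth barcodes was at -0.38 (20% in the rule genes), -0.85 (10% mitochondrial), -0.37 (no doublet candidates), -0.46 (no barcodes rich in enteroendocrine markers) and between -1.11 (without Fpr2VKO replicate 1) and 2.62 with 1 library left out.

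The labels number the libraries 1 to 3 in each group without saying that a number marks a shared litter or day. For that reason the numbers were not taken as pairs. Deviations of same-numbered libraries correlated by 0.00755, 0.0793 and 0.123 across genes, and 5 of the 6 libraries correlated best with their own number. The alpha-defensin share of UMIs also ran by number, at 60.3%, 67.7% and 62.4% in Fpr2f/f and 60.5%, 67.9% and 62.8% in Fpr2VKO. Defa21 and Defa22 together did not, at 53114, 105381 and 106589 CPM against 84989, 43981 and 90690 CPM. Whether the numbers mark pairs was not tested. With a replicate block the calls were 80 (25 higher, 55 lower) in Paneth barcodes, 24 against the other kept barcodes and 4 against goblet barcodes, of which 3 were among the 4 without the block, Retnlb being lost. Depth limits genes under 20 CPM. Sirpa, for example, had 2 UMIs in the Paneth barcodes of Fpr2f/f replicates 1 and 3.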
